A study of Mus musculus with 4 samples.

Results

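The genes described here encode plasma membrane and lysosomal carriers of amino acids, taurine, creatine and neurotransmitters. They were chosen by name: all protein-coding genes of the GENCODE M21 annotation in the solute carrier families SLC1, SLC3, SLC6, SLC7, SLC36 and SLC38, 61 of 21728 protein-coding genes measured. One of the 61, Slc7a6os, belongs to the set by its symbol only, because it lies next to Slc7a6 and is not a carrier. The mark measured was H3K27ac, the acetylated form of lysine 27 of histone H3 that is found on active promoters and enhancers, by chromatin immunoprecipitation and sequencing of heart tissue. The mice were females of the hybrid strain B6CASTF1/J (C57BL/6J crossed with CAST/EiJ), 2 months old. All 4 libraries belong to 1 group: 2 pools, each made of 2 heart samples and sequenced as 2 technical replicates, and both pools carry the same donor identifier. No other condition was compared, so levels are given by gene, beside all protein-coding genes measured the same way. With 1 peak list per biological replicate there is no test between the pools, and no error beyond the values of the 2 single-replicate lists.

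Amino acid carriers bring building blocks, osmolytes and signalling amino acids into the cell against or along their gradients. Carriers of SLC7 light chains need a heavy chain of SLC3 to reach the membrane, SLC1 and SLC38 carriers are driven by sodium, and some SLC36 carriers by protons. SLC6 carriers are coupled to sodium and chloride and include those that clear noradrenaline, serotonin, dopamine, glycine and GABA from synapses, as well as the carriers of taurine and creatine. Heart muscle cells hold much taurine and creatine and take up both from the blood. Several carrier genes are targets of ATF4, the transcription factor that cells make when amino acids run short, through a composite site called the amino acid response element.

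In these hearts the carriers of taurine (Slc6a6) and creatine (Slc6a8) and 8 of 11 neutral amino acid carriers of SLC38 had acetylated promoters. Among the SLC6 carriers of monoamines and glycine 1 of 5 had one, and among those of nutrient amino acids 0 of 10. A promoter peak is an H3K27ac peak within 1 kb of any annotated transcription start site (TSS) of a gene. In the replicated list, 22 of the 61 genes (36.1%) had a promoter peak, while 57.3% of all protein-coding genes did. A peak within 1 kb of the 5′ end of the gene was found for the same number, 22 of 61 (36.1%), beside 53.7% of all genes. Any peak in the gene or within 50 kb of its ends was found for 51 of 61 (83.6%), beside 79.1% of all genes. Among 281 genes of other solute carrier families, 167 (59.4%) had a promoter peak and 254 (90.4%) any peak within 50 kb. Both shares were thus lower in the transporter genes than in other carrier genes. Beside all genes, the order of the share with any peak turned with the flank: within 25 kb it was 40 of 61 (65.6%), below the 73.8% of all genes. In bulk tissue a mark that few cells carry and a mark that is weak in many cells cannot be told apart.

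The heart label was checked against marker genes. Promoter peaks stood at 5 of 5 cardiomyocyte, 4 of 4 endothelial and 3 of 3 fibroblast markers, and at 0 of 4 sympathetic neuron, 0 of 3 macrophage, 1 of 5 neuron (Stmn2) and 1 of 4 proximal tubule or gut markers (Vil1). Tyrosine hydroxylase (Th), which marks sympathetic neurons, had no peak within 50 kb. The replicated list held 63061 peaks with a median width of 693 bp, and the lists of replicate 1 and replicate 2 covered 54.4 and 81.1 Mb.

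Sequences are shown first for the 250 bases before the 5′ end of 4 genes, read 5′ to 3′ on the strand of the gene from GRCm38 (mm10), because base composition and acetylation did not go together in all of them. Capitals mark each CpG. Slc38a2 (chr15:96699731-96699980, minus strand) and Slc6a6 (chr6:91683803-91684052, plus strand) had the widest promoter peaks of the set. Slc38a3 (chr9:107669531-107669780, minus strand) had a wide promoter peak with few CpGs. Slc6a17 (chr3:107518019-107518268, minus strand) had no promoter peak. They hold 30, 27, 3 and 18 CpGs.
Slc38a2: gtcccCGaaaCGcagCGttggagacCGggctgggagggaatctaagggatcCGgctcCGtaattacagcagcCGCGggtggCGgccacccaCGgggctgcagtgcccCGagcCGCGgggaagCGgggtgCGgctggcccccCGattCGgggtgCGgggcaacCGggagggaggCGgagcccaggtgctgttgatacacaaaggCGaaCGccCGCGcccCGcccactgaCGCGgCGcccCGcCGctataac
Slc6a6: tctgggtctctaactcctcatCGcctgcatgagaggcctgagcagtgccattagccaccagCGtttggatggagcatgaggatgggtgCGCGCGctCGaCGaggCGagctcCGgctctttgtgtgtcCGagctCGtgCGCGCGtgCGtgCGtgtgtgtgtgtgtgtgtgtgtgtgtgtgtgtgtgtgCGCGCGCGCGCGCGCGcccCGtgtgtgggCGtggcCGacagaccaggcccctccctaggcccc
Slc38a3: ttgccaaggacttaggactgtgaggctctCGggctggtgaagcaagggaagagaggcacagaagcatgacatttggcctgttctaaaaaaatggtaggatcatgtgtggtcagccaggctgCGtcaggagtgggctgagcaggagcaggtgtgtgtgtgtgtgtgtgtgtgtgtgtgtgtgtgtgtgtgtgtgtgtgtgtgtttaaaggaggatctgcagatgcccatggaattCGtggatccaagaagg
Slc6a17: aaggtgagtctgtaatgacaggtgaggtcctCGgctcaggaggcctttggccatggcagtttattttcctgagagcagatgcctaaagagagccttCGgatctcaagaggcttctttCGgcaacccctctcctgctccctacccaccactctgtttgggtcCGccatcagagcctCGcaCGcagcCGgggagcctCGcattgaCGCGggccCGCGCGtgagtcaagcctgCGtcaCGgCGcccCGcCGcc

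The second set of sequences holds matches to the core of the amino acid response element, TGATGNAA on either strand, in capitals with 20 bases on either side. The first 5 lie inside replicated peaks at or in the named gene and outside exons. They are an intron of Slc38a2 (chr15:96699157-96699204, 546 bases after the 5′ end), an intron of Slc7a1 (chr5:148399480-148399527, 397 bases after it), sequence 990 bases before Slc1a5 (chr7:16780330-16780377), an intron of Slc6a9 (chr4:117836477-117836524, 1991 bases after the 5′ end) and an intron of Slc7a5 (chr8:121898575-121898622, 9092 bases after it). The last 2 lie before the 5′ ends of Slc7a11 (chr3:50443633-50443699, 2 matches, the farther one 65 bases before it) and Slc7a7 (chr14:54417918-54417965, 165 bases before it), outside any peak. Slc1a5 and Slc6a9 lie on the plus strand and the others on the minus strand. Response elements in the intron of Slc38a2 and in the promoter of Slc7a11 are known from work on cultured cells. A match is a run of letters, not a measured site.
Slc38a2 intron: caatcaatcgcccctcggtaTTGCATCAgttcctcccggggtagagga
Slc7a1 intron: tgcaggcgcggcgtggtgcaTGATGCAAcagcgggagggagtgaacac
Slc1a5 upstream: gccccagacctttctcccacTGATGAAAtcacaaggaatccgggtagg
Slc6a9 intron: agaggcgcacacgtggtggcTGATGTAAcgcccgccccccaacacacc
Slc7a5 intron: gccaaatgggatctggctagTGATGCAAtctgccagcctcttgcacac
Slc7a11 upstream: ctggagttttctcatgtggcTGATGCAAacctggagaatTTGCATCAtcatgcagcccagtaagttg
Slc7a7 upstream: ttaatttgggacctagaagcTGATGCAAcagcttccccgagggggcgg

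The length that peaks covered in a gene with 50 kb added at each end, called acetylated length here, ranged from 0 to 39.7 kb over the 61 genes. Its median was 3.47 kb, beside 5.07 kb for genes of other solute carrier families and 4.39 kb for all protein-coding genes. Members with a promoter peak had a median of 8.37 kb (7.95 kb for all genes with one), and members without had 1.51 kb (0.265 kb for all genes without one). Of the 39 members without a promoter peak, 29 (74.4%) had a peak in the window, beside 51.0% of all genes without a promoter peak and 76.3% of the 114 genes of other solute carrier families without one. In 19 (48.7%) the window held a promoter peak of another gene, beside 39.7% of all genes and 61.4% of the other carrier genes without a promoter peak. The 5 members in the top decile of all genes by acetylated length were Slc38a3, Slc6a6, Slc38a9, Slc6a7 and Slc38a6.

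**Figure D1:**
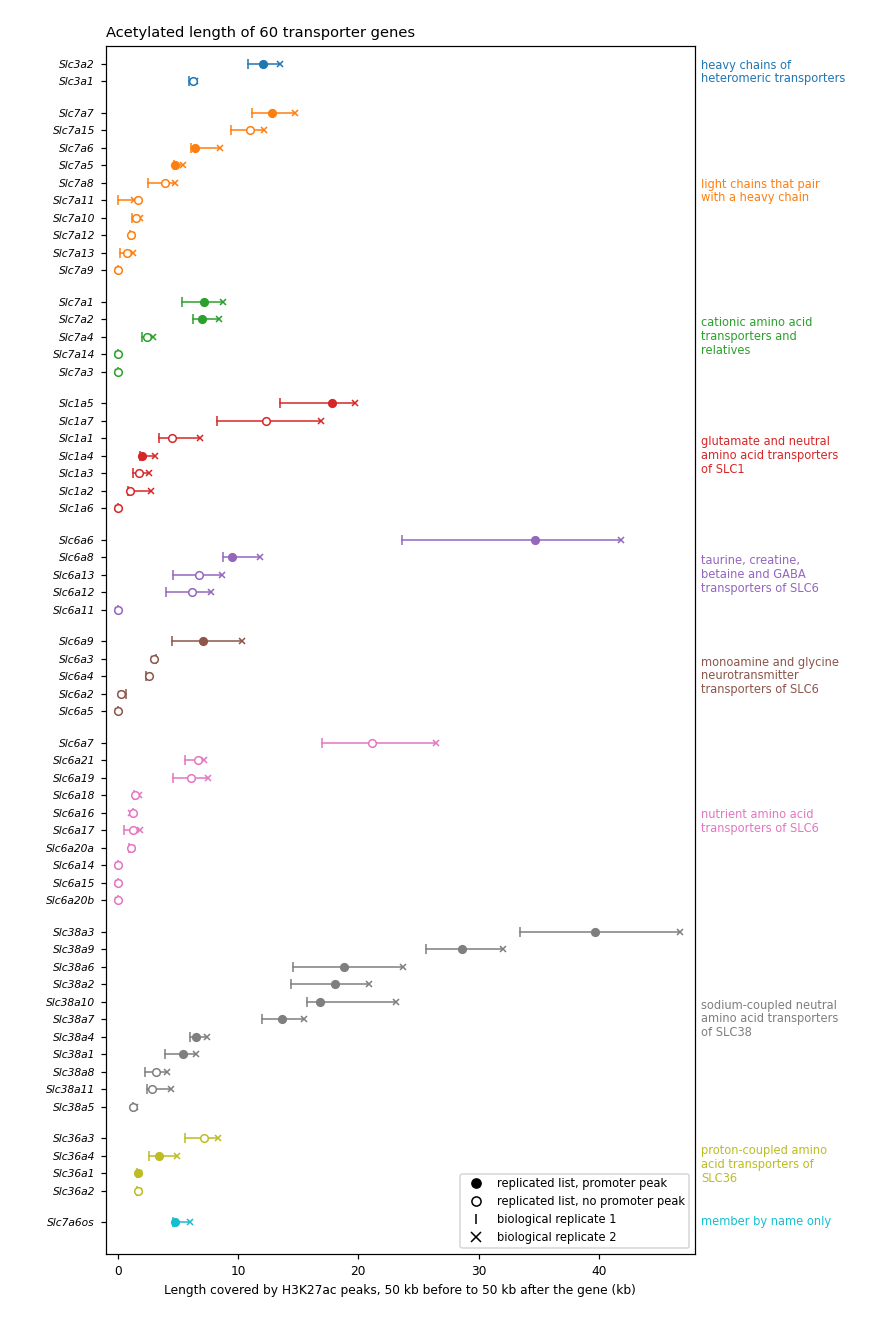
Length in kb under H3K27ac peaks in each of 60 genes with 50 kb at each end (x axis), by role group (y axis, colours). Circles are the replicated list, filled where the gene has a promoter peak, bars are biological replicate 1 and crosses biological replicate 2. Slc38a3 (39.7 kb) and Slc6a6 (34.7 kb) reach farthest, and 9 genes lie at 0.

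The sodium-coupled neutral amino acid transporters of SLC38, which carry glutamine, alanine and related amino acids, were the role group with the most acetylated promoters. Of its 11 genes 8 had a promoter peak, all 11 had a peak in the window, and the median acetylated length was 13.7 kb. The genes without a promoter peak were Slc38a8 (3.18 kb of acetylated length), Slc38a11 (2.88 kb) and Slc38a5 (1.26 kb).

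Slc38a2, a widely expressed carrier of small neutral amino acids that cells induce under amino acid shortage, had the widest and highest promoter peak of the whole set. The peak was 5.90 kb wide in the replicated list, 5.85 kb in replicate 1 and 8.32 kb in replicate 2. Its fold, the ratio that the authors deposited for each peak and that is read as enrichment over a control, was 29.5, 29.8 and 39.8 in the 3 lists. The gene itself is 12.3 kb long, and the peak ran from before the 5′ end over the upstream part of the gene, with its summit 646 bases after the 5′ end. 2 further strong peaks outside any promoter stood 10.5 kb (fold 20.5) and 49.8 kb (fold 19.1) before the gene. Acetylated length was 18.1 kb, and 14.4 and 20.9 kb in the single-replicate lists.

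Slc38a3, a glutamine carrier best known from liver, kidney and astrocytes, had the most acetylated length, at 39.7 kb in the replicated list, 33.4 kb in replicate 1 and 46.7 kb in replicate 2. Of the 39.7 kb, 22.6 kb lay at promoters of other genes, among them Gnai2, Sema3b and Sema3f, and 4.49 kb at its own promoter. Its widest promoter peak covered 3.15 kb (1.99 and 3.59 kb in the single-replicate lists), and its highest fold, 13.6, belonged to a narrower peak 1.24 kb before the 5′ end. More than its own promoter, the start sites of neighbouring genes filled the window.

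Slc38a9, a lysosomal carrier that reports arginine to mTORC1, had a narrow promoter peak and a long acetylated stretch beyond its end. Its widest promoter peak measured 0.698 kb in the replicated list, 0.567 kb in replicate 1 and 1.10 kb in replicate 2, and the highest fold in the replicated list, 10.3, belonged to a narrower peak at the 5′ end. Acetylated length was 28.6 kb, and 25.6 and 32.0 kb in the single-replicate lists. Of the 28.6 kb, 23.1 kb lay outside the gene and away from any protein-coding TSS, with the highest peak (fold 19.4, 4668 bp) 104 kb after the 5′ end and so beyond the 3′ end of the 78.0 kb gene.

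Slc38a6, a carrier of the same family whose substrate range is less well known, had acetylated start sites at the 5′ end and far within the gene. A peak of 3332 bp covered the 5′ end, in a window shared with the start site of Trmt5, and a peak of 3579 bp with a fold of 17.5 covered an internal TSS 55.8 kb downstream. The highest promoter fold was 15.5 in replicate 1 and 21.5 in replicate 2. The widest promoter peak measured 3.31 kb in replicate 1 and 5.32 kb in replicate 2. Reads at the shared window cannot be assigned to 1 of the 2 genes. Acetylated length was 18.8 kb (14.6 and 23.7 kb).

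Among the other 4 genes of this family with a promoter peak, Slc38a10 had its widest peak, 2505 bp with a fold of 5.22, 8.86 kb after the 5′ end and its highest, 649 bp with a fold of 9.28, just before the 5′ end. A 6029 bp peak with a fold of 29.4 stood 34.2 kb before its 5′ end. Slc38a7, a lysosomal glutamine carrier, had a peak of 1030 bp with a fold of 7.71. Slc38a1, which neighbours Slc38a2 and carries glutamine, had 1148 bp for its widest peak and a highest fold of 5.31. Slc38a4, which is imprinted and expressed from the paternal allele in several tissues, had the lowest promoter fold of all 22 genes, 3.32 over 717 bp, while a 1836 bp peak within its body reached a fold of 9.76. Promoter fold within the family thus ranged widely, from Slc38a4 to Slc38a2. The parental alleles were not separated here.

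**Figure D2:**
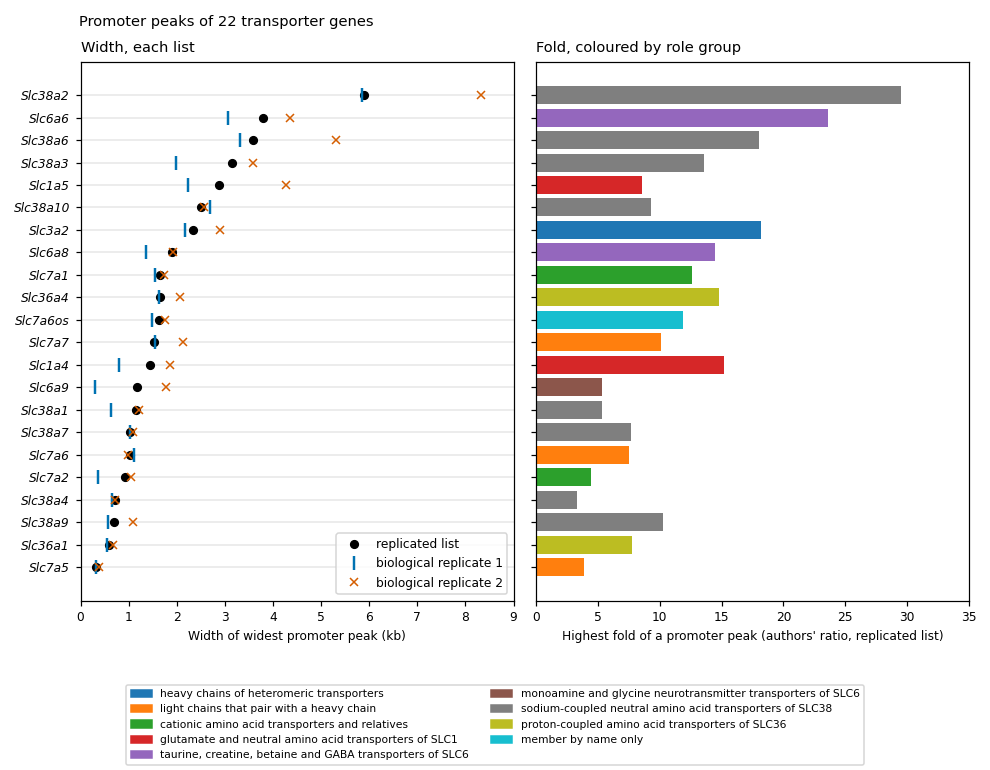
Promoter peaks of the 22 genes that have one: width in kb of the widest promoter peak (left) in the replicated list (dots), replicate 1 (bars) and replicate 2 (crosses), and highest fold in the replicated list (right, coloured by role group). Slc38a2 is at the top in both, and Slc7a5 (0.328 kb) has the narrowest peak in the replicated list.

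The taurine, creatine, betaine and GABA transporters of SLC6 differed in their promoter calls. Slc6a6 and Slc6a8, the taurine and creatine transporters, had promoter peaks, and the other 4 genes, which carry GABA and betaine, had none. Slc6a6 had the second widest and second highest promoter peak of the set, 3.80 kb with a fold of 23.6. In replicate 1 it was 3.07 kb with a fold of 19.6, and in replicate 2 it was 4.36 kb with a fold of 28.4. Within the gene a row of intronic peaks carried most of the acetylated length: 18.8 of 34.7 kb lay in the gene body away from start sites, and the highest of these peaks (fold 11.1, 3030 bp) stood 53.9 kb after the 5′ end. In the single-replicate lists the length was 23.6 and 41.8 kb, so the gene was above all members but Slc38a3 and Slc38a9 in replicate 1, and above all but Slc38a3 in replicate 2. Its percentile among all protein-coding genes was 98.4.

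Slc6a8, on the X chromosome, had a promoter peak of 1.90 kb with a fold of 14.5. Replicate 1 gave 1.36 kb with a fold of 13.5 and replicate 2 gave 1.92 kb with a fold of 16.7. Its acetylated length was 9.54 kb, of which 4.68 kb lay at promoters of other genes. It was the only one of the 4 X-linked members with a promoter peak; Slc38a5, Slc6a14 and Slc7a3 had none. The GABA carrier Slc6a11 had no peak within 50 kb. Slc6a13 and the betaine carrier Slc6a12, which lie side by side on chromosome 6, had no promoter peak, and their windows, which overlap, held 6.80 and 6.19 kb of acetylation away from start sites.

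**Figure D3:**
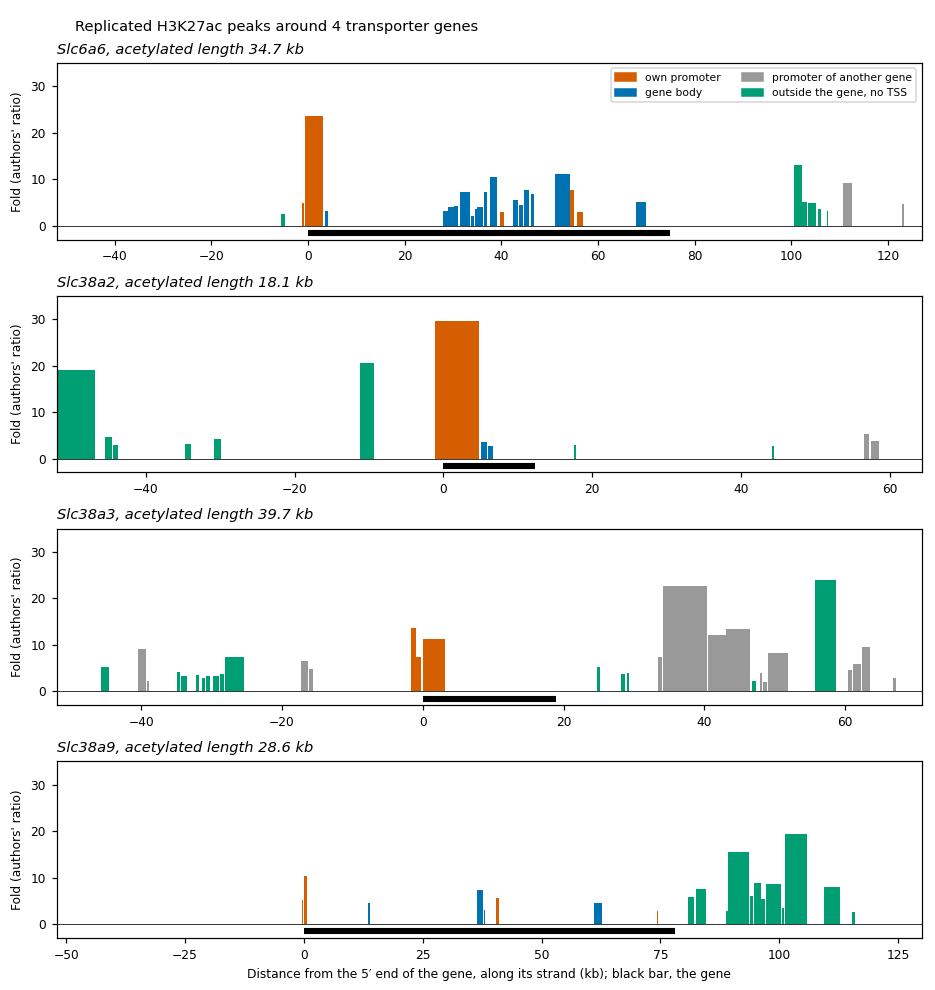
Replicated peaks around 4 genes: fold of each peak (y axis, the authors' ratio) against distance in kb from the 5′ end along the strand of the gene (x axis); bars span each peak and the black line is the gene. Slc6a6 has peaks through its body, Slc38a2 a single wide promoter peak, Slc38a3 peaks at promoters of other genes and Slc38a9 peaks beyond its 3′ end.

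The heteromeric transporters showed unequal promoters for chains that work as a pair. Slc3a2 encodes the heavy chain that most SLC7 light chains need, and Slc7a5 the light chain that carries large neutral amino acids such as leucine. Slc3a2 had 5 promoter peaks, with a highest fold of 18.2 (14.1 in replicate 1, 22.6 in replicate 2) and a greatest width of 2.33 kb (2.18 and 2.90 kb), the latter at an internal TSS 9.79 kb after the 5′ end. Slc7a5 had 1 promoter peak of 0.328 kb with a fold of 3.89, and 0.325 and 0.383 kb with folds of 3.39 and 4.63 in the single-replicate lists. Among the 22 genes it was the narrowest in the replicated list and in replicate 2, while in replicate 1 Slc6a9 was narrower (0.302 kb). Slc3a1, the heavy chain of the kidney cystine transporter, had no promoter peak.

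Of the 10 light chains, 3 had a promoter peak: Slc7a5, Slc7a6 and Slc7a7. Slc7a6 and Slc7a7 exchange cationic for neutral amino acids. Slc7a6 had a peak of 1.03 kb (1.12 kb in replicate 1, 0.980 kb in replicate 2) with a fold of 7.49. Slc7a7 had a weak peak of 362 bp with a fold of 2.84 at the 5′ end and a stronger one of 1530 bp with a fold of 10.1 at an internal TSS 7.39 kb downstream, so that the annotated 5′ end was not its most acetylated start site. Slc7a11, the light chain of the cystine and glutamate exchanger, had no promoter peak in any list, and its nearest peak lay 60.9 kb from the 5′ end. It spans 551 kb and held 3 weak peaks, with folds of 3.51, 3.32 and 2.56, all intronic; the replicate 1 list had none there. Slc7a15 (11.0 kb), Slc7a8 (3.95 kb) and Slc7a11 (1.66 kb) had the most acetylated length among light chains without a promoter peak, and for Slc7a15 7.14 kb of it was the promoter of Rhob. Slc7a9, the light chain of the kidney cystine transporter, had no peak in its window.

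Of the 5 cationic amino acid transporters and relatives, Slc7a1 and Slc7a2 had promoter peaks. Slc7a1, the main arginine and lysine carrier of many tissues, had a peak of 1058 bp with a fold of 7.90 at the 5′ end and its strongest one, 1662 bp with a fold of 12.6, at an internal TSS 57.5 kb downstream. In the single-replicate lists the widest peak was 1.54 and 1.74 kb and the highest fold 9.68 and 17.0. Slc7a2, which supplies arginine in liver and activated macrophages, had a peak of 0.919 kb with a fold of 4.46, and it was 0.356 kb in replicate 1 and 1.04 kb in replicate 2. Slc7a3 and Slc7a14, carriers best known from brain, had no peak within 50 kb, and Slc7a4 had 2.43 kb, all at promoters of other genes.

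Among the 7 genes of SLC1, the neutral amino acid carriers Slc1a5 and Slc1a4 had promoter peaks and the 5 glutamate carriers had none in the replicated list. Slc1a5, a glutamine carrier, had a peak of 2.88 kb with a fold of 8.53. It was 2.23 kb with a fold of 6.93 in replicate 1 and 4.28 kb with a fold of 10.9 in replicate 2. Of its 17.8 kb of acetylated length, 9.69 kb lay at promoters of other genes, among them Strn4 and Prkd2. Slc1a4, a carrier of serine and alanine, had a narrower peak with a higher fold, 1.44 kb and 15.2, and only 2.06 kb in its window. Slc1a7 (12.3 kb), Slc1a1 (4.51 kb) and Slc1a3 (1.75 kb) had the most acetylated length among the genes without a promoter peak.

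The astrocyte glutamate carriers Slc1a3 and Slc1a2 were the only members whose promoter call differed between the pools. Replicate 2 had a promoter peak of 0.430 kb with a fold of 4.42 at Slc1a3 and one of 0.335 kb with a fold of 4.43 at Slc1a2, and replicate 1 had neither. Both folds lay below the median fold of that list, 5.44. In replicate 2 Slc1a3 had a peak within 1 kb of its 5′ end. Slc1a2 did not, so its promoter peak stood at another annotated TSS. The count of members with a promoter peak was 22 (36.1%) in replicate 1, beside 55.7% of all genes, and 24 (39.3%) in replicate 2, beside 58.4%. In both lists together it was 22, beside 55.4% of all genes. Replicate 2 also gave wider peaks: 20 of the 22 promoter peaks were wider there, the exceptions being Slc7a6 and Slc38a10, and acetylated length was longer there for 48 members, shorter for 3 (Slc6a16, Slc6a2 and Slc6a3) and equal for 10. The median ratio of replicate 2 to replicate 1 was 1.46 over the 50 members with a peak in both lists, beside 1.42 for all genes, so the members moved with the whole list.

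Of the monoamine and glycine neurotransmitter transporters only Slc6a9 had a promoter peak, and those for noradrenaline (Slc6a2), dopamine (Slc6a3), serotonin (Slc6a4) and synaptic glycine of inhibitory neurons (Slc6a5) had none. Slc6a9, a glycine carrier that is also made outside the nervous system, had 2 promoter peaks, 303 bp with a fold of 3.87 near the 5′ end and 1181 bp with a fold of 5.35 with its summit 2.09 kb downstream. The widest was 0.302 kb in replicate 1 and 1.77 kb in replicate 2, the largest relative difference between the pools among the 22 genes. Slc6a3 (3.06 kb), Slc6a4 (2.62 kb) and Slc6a2 (0.320 kb) had little acetylation in their windows, and Slc6a5 had none.

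None of the 10 nutrient amino acid transporters of SLC6, carriers of kidney, gut and brain, had a promoter peak, and their median acetylated length was 1.25 kb. The most lay at Slc6a7, a brain proline carrier, with 21.1 kb (17.0 and 26.5 kb in the single-replicate lists), which is the 92.7th percentile of all genes. Its peaks belonged to the surroundings: 5.15 kb lay at promoters of Pdgfrb and Camk2a, 15.7 kb away from start sites and outside the gene, and 0.234 kb within it. Slc6a21 had 6.66 kb and Slc6a19, the main neutral amino acid carrier of gut and kidney, 6.12 kb. Slc6a14, Slc6a15 and Slc6a20b had no peak in the window.

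Of the 4 genes of SLC36, Slc36a4 and Slc36a1 had promoter peaks. Slc36a4 had 1.65 kb with a fold of 14.8, and 1.63 and 2.07 kb in the single-replicate lists. Slc36a1, a lysosomal and gut carrier, had 0.597 kb with a fold of 7.77. Slc36a2 and Slc36a3, which lie beside Slc36a1 on chromosome 11, had none, and Slc36a3 had 7.21 kb in its window, 4.37 kb of it at promoters of other genes. Slc7a6os, the member by name only, shared its promoter peak of 1.64 kb (fold 11.9) with Prmt7.

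Few members had their nearest peak close to 1 kb from the 5′ end, though the promoter limit applies to any annotated TSS. Slc6a9 had its nearest peak 0.840 kb from the 5′ end and counted. Slc36a2, with its nearest peak at 1.84 kb, Slc6a16 at 2.34 kb and Slc1a7 at 2.63 kb did not. With a TSS distance of 0.5 kb no member, Slc6a9 included, lost its promoter peak. A TSS distance of 2.5 kb added Slc1a2, Slc6a16 and Slc36a2, and for Slc1a2 this was not at the 5′ end. The peaks nearest to Slc6a16 lie at promoters assigned to Cd37.

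Promoter peaks of members were slightly wider at the median than those of all genes, and lower in fold. The median width of the widest promoter peak was 1584 bp, beside 1436 bp for all genes with one. The median of the highest fold was 10.2 beside 13.2. It was 9.51 beside 10.8 in replicate 1 and 11.8 beside 16.5 in replicate 2. A promoter peak over 2.5 kb wide was found for 6 members, 27.3% of the 22 with a promoter peak, beside 19.9% of all genes with one. Over all 61 members this was 9.84%, beside 11.4% of all genes. These were Slc38a2, Slc6a6, Slc38a6, Slc38a3, Slc1a5 and Slc38a10. At the other end, 5 genes had peaks narrower than 1 kb: Slc7a2, Slc38a4, Slc38a9, Slc36a1 and Slc7a5. Of the 22, 13 had more than 1 promoter peak, and in 7 the widest one was away from the 5′ end. In Slc6a9, Slc7a1 and Slc7a7 so was the one with the highest fold. The shares of all genes for these counts are not reported here, so they describe single genes and not a trait of the set.

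The windows of the 61 genes held 343 distinct peaks, and since windows overlap these gave 366 pairs of gene and peak. Of 401 kb summed over all windows, 15.8% lay at promoters of the members, 11.1% in their bodies, 31.9% at promoters of other genes and 41.1% elsewhere. The 50 peaks at promoters of members had a median width of 924 bp and fold of 6.31, and the 54 peaks in gene bodies 698 bp and 4.22. Acetylated length of a window is thus mostly not that of the carrier gene itself, and for single genes the share differed: it was largest in the body for Slc6a6, at other promoters for Slc38a3 and Slc1a5, and away from start sites for Slc38a9 and Slc6a7. Which of these peaks act on the carrier genes was not tested.

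**Figure D4:**
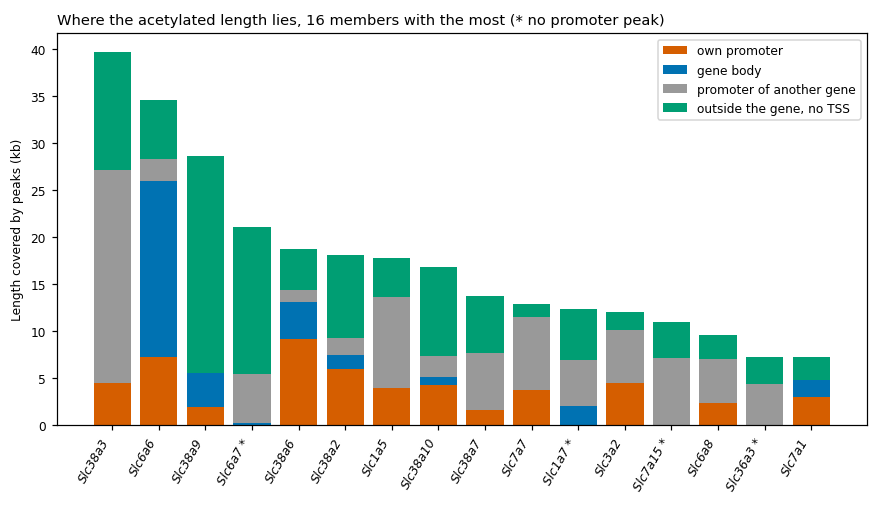
Length in kb covered by peaks (y axis) in the windows of the 16 members with the most (x axis), divided into peaks at the gene's own promoter, in its body, at promoters of other genes and elsewhere. Slc6a6 has 18.8 kb in its body, Slc38a3 has 22.6 kb at other promoters, and starred genes have no promoter peak.

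Base composition at the 5′ end went with the promoter calls, in the members as in all genes. CpG observed over expected, the number of CpG pairs relative to that given by the base counts, was taken over 500 bases on either side of the 5′ end. Its median was 0.681 for the 22 members with a promoter peak and 0.471 for the 39 without, beside 0.720 and 0.221 for all genes. A value over 0.6 was found for 15 of 22 (68.2%) and 10 of 39 (25.6%), beside 69.7% and 14.9% of all genes. Slc7a5 had 1.03, Slc38a2 1.02 and Slc3a2 0.968. The lowest values with a promoter peak were those of Slc38a3 (0.220), whose upstream sequence is printed above, Slc6a9 (0.343) and Slc38a7 (0.451).

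The 10 CpG-rich genes without a promoter peak included glutamate, GABA and serotonin carriers known from the brain. They were Slc1a2 (0.810), Slc6a20a (0.810), Slc6a17 (0.808), Slc1a1 (0.780), Slc6a11 (0.759), Slc6a4 (0.758), Slc6a7, Slc6a16, Slc6a21 and Slc7a8. Of these, Slc1a2 and Slc6a17 lie in windows with 1.06 and 1.24 kb of acetylation, and Slc6a11 in one with none. Among the members with the highest values peak width differed: Slc38a2 (1.02) had a promoter peak of 5.90 kb and Slc7a5 (1.03) one of 0.328 kb.

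**Figure D5:**
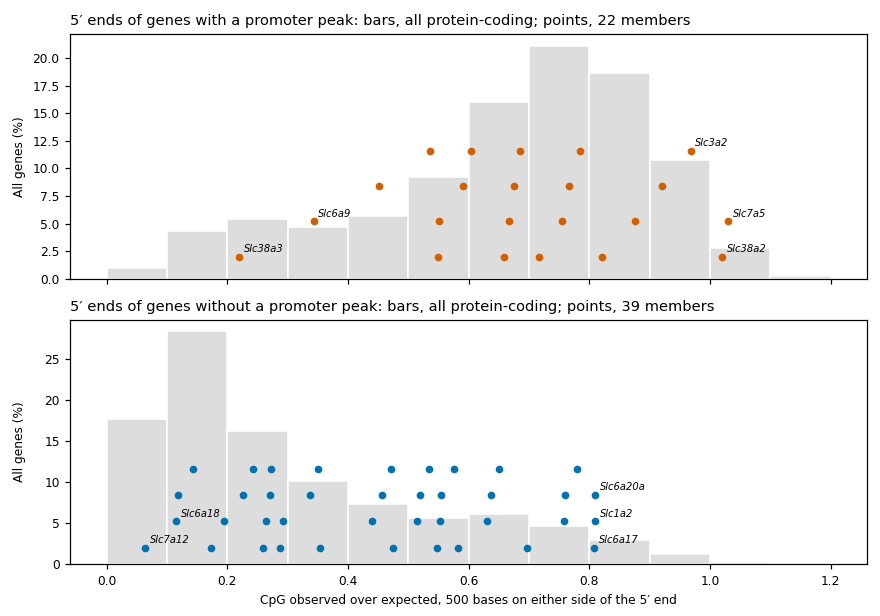
CpG observed over expected within 500 bases of the 5′ end (x axis). Grey bars give the percent of all protein-coding genes in each bin (y axis), with a promoter peak above and without below; points are the 22 and 39 members, their height only spreading them. Slc38a3 (0.220) is the lowest acetylated member, and Slc1a2 and Slc6a20a (both 0.810) the highest without a promoter peak.

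4 short consensus sequences were searched on both strands in the same 500 bases on either side of the 5′ end. The amino acid response core TGATGNAA stood in 8 of 61 members (13.1%), beside 10.7% of all genes. It stood in 4 of the 22 with a promoter peak (18.2%), which were Slc7a1, Slc7a7, Slc38a1 and Slc1a4, beside 6.96% of all genes with one. Among the 39 members without a promoter peak it stood in 4 (10.3%), beside 15.7% of all genes without one. The matches of Slc7a7 and Slc38a1 in this window lay outside any peak. The match of Slc38a2 printed above lies 546 bases after the 5′ end and so just outside this window. The E-box CACGTG, a palindrome bound by several factors of the basic helix-loop-helix class, stood in 12 of the 22 (54.5%). This was beside 20.9% of all genes with a promoter peak. It stood in 9 of the 39 others (23.1%), beside 12.1% of all genes without a promoter peak, and in 17.2% of all genes. The 12 with a promoter peak were Slc6a9, Slc7a1, Slc7a2, Slc7a5, Slc7a6, Slc7a6os, Slc36a1, Slc38a1, Slc38a3, Slc38a4, Slc38a7 and Slc38a9. In Slc6a9, Slc7a5 and Slc38a4 the E-box of this window lay outside any peak. Whether matches lay inside a peak was not counted for all genes. The antioxidant response core TGACNNNGC stood in 10 of the 22 (45.5%), beside 36.3%, and the estrogen-related receptor element TCAAGGTCA in 0 of the 22, beside 1.68% of all genes with a promoter peak.

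The same sequences were searched within 150 bases on either side of peak summits, in the 343 peaks of the windows, in the 104 of them at promoters or in bodies of members, and in all 63061 peaks. The amino acid response core stood at 3.50% of the 343, 4.81% of the 104 and 3.36% of all peaks. The E-box stood at 5.25%, 6.73% and 4.22%, and the antioxidant core at 15.7%, 15.4% and 11.9%. The estrogen-related receptor element stood at 0.292%, 0.962% and 0.874%, and in both sets of the members this was 1 peak. These counts describe letters in the reference sequence, and no binding was measured.

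Other genes of the amino acid pathways are given list by list, beside the 57.3% of all genes that had a promoter peak. All 20 genes of amino acid sensing by mTORC1 and by GCN2 and ATF4 had a promoter peak in the replicated list, with a median acetylated length of 8.93 kb. Sesn1, a leucine sensor, had a promoter peak of 5.76 kb with a fold of 32.1, and Atf4 itself 3.11 kb with a fold of 28.3. The weakest was Asns, the asparagine synthetase gene and a well known ATF4 target, with 0.266 kb and a fold of 3.37, called in replicate 1 but not in replicate 2. Promoter peaks stood at 7 of 9 genes (77.8%) of glutamate, glutamine and GABA metabolism, all but the GABA-making enzymes Gad1 and Gad2, which had no peak within 50 kb, as was also the case for the GABA carrier Slc6a11. They stood at 7 of 8 genes (87.5%) of branched-chain amino acid breakdown, all but Bcat1.

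For taurine, creatine and carnitine, 3 of 5 synthesis genes measured had a promoter peak, a share near that of all genes. Gamt, the last enzyme of creatine synthesis, had one of 3.09 kb with a fold of 25.7, and Csad, an enzyme of taurine synthesis, one of 2.65 kb with a fold of 10.2, while Gatm had a highest fold of 3.03 and was called in replicate 2 but not in replicate 1. Cdo1 and Bbox1 had none. Among 11 genes of catecholamine synthesis, storage and clearance 7 (63.6%) had a promoter peak, also near the share of all genes, and their median acetylated length was 2.81 kb. Among the 7 were genes of synthesis and storage, the enzymes Pnmt (fold 18.2) and Ddc (fold 6.40) and the vesicular carrier Slc18a1 (fold 19.9). Genes of clearance among them were the degrading enzyme Maoa (fold 8.91) and the extraneuronal carrier Slc22a3 (fold 4.55). Ddc had no peak within 1 kb of its 5′ end. Windows shared with start sites of neighbouring genes are not reported for these lists, so such a peak cannot be assigned to 1 gene. Th, Dbh, Slc18a2 and Slc29a4 had no promoter peak, and neither did the noradrenaline carrier Slc6a2. Of 11 amino acid carriers outside the 6 families, 7 (63.6%) had a promoter peak, and the vesicular glutamate and GABA carriers Slc17a6, Slc17a7, Slc17a8 and Slc32a1 had none.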

How the data were processed

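H3K27ac was measured by chromatin immunoprecipitation and sequencing in 4 heart libraries, 2 technical replicates of each of 2 biological replicates. The authors deposited 4 peak lists on mm10: replicated peaks and pooled peaks from both biological replicates, and 1 list for each, per the labels and the text files deposited beside the libraries. Each list gives the authors' fold, a ratio taken as enrichment over a control because of its column, the authors' −log10 p and −log10 q, and a display score deposited by the authors, which was not used. The deposited summit offset gave summits. Which aligner and peak caller made them is not given in the sources used here. Depth is unknown, and the lists hold no value per library. The lowest −log10 p of the replicated list was 2.03, and 1332 of its peaks had a deposited q above 0.05. Per the labels, mm10 served for the reads of the hybrid; effects of strain variants were not tested.

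Genes, TSSs and exons came from GENCODE M21 (chromosomes 1 to 19 and X, the first of each symbol) and sequence from GRCm38, in which all peaks lay inside the chromosomes. Overlap needed 1 bp. Intervals were handled with Python 3.11.15, pandas 2.3.3 and numpy 2.4.6. The measurement was tested on simulated peaks placed at known distances. No test across genes was made: shares and medians stand beside those of all protein-coding genes. The members, role groups, gene lists and motifs were chosen with earlier results of these data known. Named by rule were, in each role group, up to 4 members with and up to 3 without a promoter peak that had the most acetylated length, the members called in 1 single-replicate list only, and the 5 widest and 5 highest promoter peaks. Other genes were named after their values were seen. Tmlhe was not analysed here. Alternatives were other peak lists, peak filters, TSS distances, flanks and sequence windows. Some genes that these rules select are counted but not reported by name here.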

Additional observations from a re-analysis of the deposited data

How the results depend on the processing

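The count of members with a promoter peak was 22 to 24 with either single-replicate list, and lay between 19 and 25 over all lists, filters and TSS distances. Over all genes the share was 55.7% and 58.4% in the single-replicate lists. Keeping only peaks with a fold above the list median removed Slc7a2, Slc7a5 and Slc38a4, leaving 19 members, beside 53.0% of all genes. A TSS distance of 2.5 kb added Slc1a2, Slc6a16 and Slc36a2, giving 25 members, beside 58.7% of all genes. Leaving out 1 biological replicate gave 50 to 51 members with any peak (82.0% to 83.6%), beside 77.8% to 79.7% of all genes. It gave 22 to 23 with a peak at the 5′ end (36.1% to 37.7%), beside 52.1% to 54.8% of all genes. The median acetylated length was then 2.63 to 4.74 kb and the median width 1428 to 1758 bp. The size of the window decided the length: the median was 1.65 kb with flanks of 25 kb, 8.37 kb with 100 kb, and 0 kb for the gene body with 1 kb, where 30 members had any peak (13472 of all genes). At 100 kb the median of all genes was 8.38 kb. In 250 bases before to 50 after the 5′ end the median CpG observed over expected of members with a promoter peak was 0.769 (0.735 for all genes), and 4 members held the amino acid response core. Within 1 kb on either side 20 did, and the shares of all genes in these sequence windows are not reported here. These alternatives change the size of the window itself. For single members, 335 values of acetylated length under alternatives were unchanged or moved by less than the spread between the pools, and 153 moved by more. For promoter width the counts were 134 and 17. The spread was the standard deviation of the single-replicate values, which were themselves among the alternatives. Lengths that stayed at 0 kb count as unchanged, so these counts do not measure how stable the values are. No paired analysis was possible because there is 1 group. Depth is unknown, so a promoter without a peak may carry a mark below what these libraries detect. The same donor identifier for both pools means that differences between them may be technical.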

Other observations

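Of the 10 members without a peak within 50 kb (16.4%, beside 20.9% of all genes), 8 also had none within 100 kb (13.1%, beside 15.7% of all genes), among them Slc1a6, Slc6a5, Slc6a11, Slc6a14, Slc6a15, Slc7a3 and Slc7a14. These include the GABA carrier Slc6a11, the glycine carrier Slc6a5 of inhibitory neurons and Slc1a6, a glutamate carrier of cerebellar neurons. Slc7a9 and Slc6a20b had a peak between 50 and 100 kb. These genes were singled out after their values were seen.

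Neighbouring members could differ in their promoters. Slc38a1 and Slc38a2, adjacent on chromosome 15, had promoter folds of 5.31 and 29.5. Slc36a1 had a promoter peak (fold 7.77), and Slc36a2 and Slc36a3 beside it had none.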
